A study of Mus musculus with 8 samples.

Results

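The major urinary proteins (Mup) are examined here in primary mouse hepatocytes through 10 genes: Mup1, Mup2, Mup3, Mup7, Mup10, Mup11, Mup13, Mup17, Mup20 and Mup21. They were picked from the 55450 counted genes because the family stood higher in cells given selenite, zinc or iron than in untreated knockout cells, so their differences in those comparisons are given as a description, with no p-value or standard error, and nothing is read from how many of them passed a threshold there. The annotation holds 49 Mup-named entries, of which 12 are other protein-coding genes and 27 are pseudogenes. RNA was sequenced from hepatocytes of C57BL/6 mice aged 8 weeks. The study's text describes the mice of the knockout line as male. The knockout cells (LSKO) carried floxed Slc39a8 together with Alb-cre, a recombinase driven by the albumin promoter, and the wild-type cells (WT) carried floxed Slc39a8 without the recombinase. Slc39a8 encodes ZIP8, a membrane transporter of divalent metals and selenite. LSKO cells were given selenite, zinc, iron or manganese at 2 µM for 24 h, with 1 library per treatment, and untreated LSKO and untreated WT cells had 2 libraries each. All cells were kept in serum-free medium with dexamethasone, a glucocorticoid. The sources do not say whether the paired libraries came from separate mice.

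Major urinary proteins are small secreted lipocalins, barrel-shaped proteins that bind small hydrophobic molecules. The mouse liver makes them in large amounts, most of all in males, and they leave the body in urine, where they carry pheromones and mark the individual. Their transcription in liver is known to follow the pulses of growth hormone through STAT5 and to respond to glucocorticoids and thyroid hormone.

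All 10 genes lie on the minus strand of one cluster on chromosome 4 of GRCm38. The cluster of members runs from Mup7 (60066469 to 60070475) to Mup21 (62147932 to 62150863), and none of their exons overlaps an exon of another gene on either strand. The members fall into a near-identical and a divergent set. Mup1, Mup2, Mup7, Mup10, Mup11, Mup13 and Mup17 share 98.3% to 99.4% of their coding bases over 21 pairs, with a median of 98.9%. Mup3, Mup20 and Mup21 share 82.3% to 91.3% with these 7 genes. A stretch of 60 coding bases near the start of the open reading frame shows how little separates most copies. It is the 60-base stretch within 1 exon in which Mup10, Mup11 and Mup13 differ most from Mup7. It is printed 5′ to 3′ from the GENCODE M21 transcripts, with bases that differ from Mup7 in capitals. The Mup7 stretch is chr4:60070229-60070288 and that of Mup13 is chr4:61228089-61228148, both on the minus strand.
Mup7: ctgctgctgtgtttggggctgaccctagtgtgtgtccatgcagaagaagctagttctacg
Mup11: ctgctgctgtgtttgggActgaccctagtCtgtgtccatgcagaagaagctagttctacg
Mup10: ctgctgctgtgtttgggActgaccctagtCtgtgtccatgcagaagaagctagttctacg
Mup13: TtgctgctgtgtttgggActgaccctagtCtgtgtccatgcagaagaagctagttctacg
Mup20: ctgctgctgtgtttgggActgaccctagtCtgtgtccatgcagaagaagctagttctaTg
Mup3: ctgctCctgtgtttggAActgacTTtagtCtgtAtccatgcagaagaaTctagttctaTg
Mup10 and Mup11 differed from Mup7 at 2 of the 60 bases, Mup13 and Mup20 at 3, and Mup3 at 9. Mup10 and Mup11 read the same over the whole stretch.

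Reads from such copies point to a single gene only where they cover a base that differs. Transcripts of each gene were therefore divided into overlapping windows of 150 bases, about the span of a read, and each window was looked for in the transcripts of every other gene. Mup3 and Mup21 were particular throughout, with 100% of windows found in no other gene. Mup20, which encodes darcin, the pheromone of male urine, followed with 68.9%. Mup17 had 59.6% and Mup1 had 47.5%. The others were less particular, with 35.2% for Mup11, 32.9% for Mup7, 29.7% for Mup2, 27.7% for Mup10 and 22.2% for Mup13. The gene sharing most windows with Mup10 was Mup22, which shared 52.7% of them, and for Mup13 it was Mup19, with 41.8%. Values of the 7 near-identical genes are uncertain to the extent that the counting could have split reads among copies, and the summed value of the 10 genes is given beside them for that reason. The sum covers splits among the 10 only, not those with other copies such as Mup22 and Mup19. Of all Mup reads, the 10 genes held between 81.9% with selenite and 89.7% in LSKO replicate 1.

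**Figure D1:**
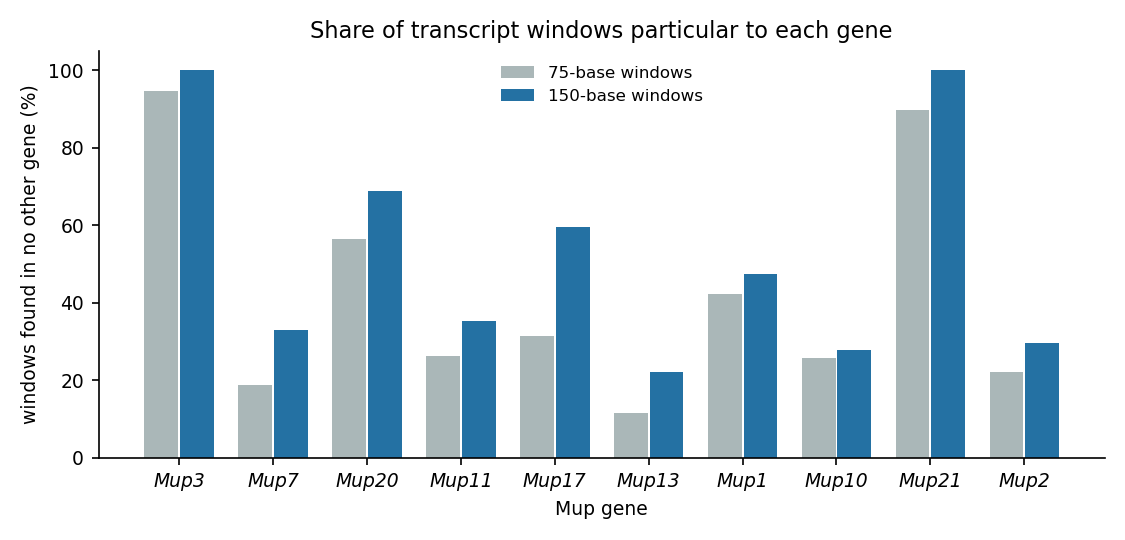
Share of transcript windows (percent, y axis) found in no other gene, for each of the 10 Mup genes (x axis, ordered by level) and for windows of 75 (grey) and 150 bases (blue). Mup3 and Mup21 reach 100% at 150 bases, and Mup13 has the smallest share at 22.2%.

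Promoter sequences from RefSeq (GRCm38.p6) were matched for 7 of the 10 genes. Those of Mup7, Mup3 and Mup21 are shown, Mup7 for its level and the other pair for the motif they share. Each is printed 5′ to 3′ on the minus strand and ends before the first transcribed base of the GENCODE gene. They lie at chr4:60070476-60070725, chr4:62087343-62087567 and chr4:62150864-62151091. Capitals mark TGTTCT, a half-site of the glucocorticoid response element.
Mup7: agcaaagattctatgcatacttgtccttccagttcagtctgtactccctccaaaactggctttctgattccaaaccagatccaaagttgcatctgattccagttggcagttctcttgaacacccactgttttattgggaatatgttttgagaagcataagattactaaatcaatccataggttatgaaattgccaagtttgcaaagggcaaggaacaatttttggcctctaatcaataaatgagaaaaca
Mup3: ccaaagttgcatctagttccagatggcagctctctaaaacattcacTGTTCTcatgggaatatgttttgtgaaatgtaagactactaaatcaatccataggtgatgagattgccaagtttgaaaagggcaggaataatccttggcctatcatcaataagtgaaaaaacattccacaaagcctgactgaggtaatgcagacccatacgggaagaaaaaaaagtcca
Mup21: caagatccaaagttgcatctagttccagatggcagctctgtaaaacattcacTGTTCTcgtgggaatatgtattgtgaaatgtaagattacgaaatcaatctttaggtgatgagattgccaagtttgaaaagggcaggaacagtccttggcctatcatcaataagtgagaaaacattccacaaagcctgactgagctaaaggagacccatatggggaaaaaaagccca
In the 250 bases before the RefSeq start, TGTTCT or its reverse complement AGAACA was found for 2 of the 7 genes, Mup3 and Mup21, and in 16.1% of all 32851 promoters of this length. TTCNNNGAA, the STAT5 motif, which is its own reverse complement in form, was found for 0 of the 7 and in 7.02% of all. The TATA box core TATAA, searched on both strands, was found for 5 of the 7 and in 22.8% of all. The matches of all 5 lay inside the GENCODE gene, so the stretches printed above hold none of them. The windows of Mup3 and Mup21 were 89.1% identical. Such matches describe letters in a window whose start differs from gene to gene.

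Reads in genes numbered 19943899 to 27731054 per library, and 15468 genes with at least 80 reads in all were tested. Slc39a8 itself had 30, 45, 47 and 75 reads in LSKO cells with selenite, zinc, iron and manganese, 185 and 51 in untreated LSKO, and 367 and 356 in WT. LSKO replicate 1 thus kept more Slc39a8 reads than the other 5 LSKO libraries. The libraries also differed in the tallies that the read counter kept beside the genes. Reads set aside for low alignment quality numbered 592678 to 680199 in the selenite, zinc, iron and both WT libraries, but 62 in the manganese library and 0 in both untreated LSKO libraries. Reads in no gene made up 4.48% of the manganese library and 42.3% to 45.6% of the others. Comparisons of selenite, zinc or iron with untreated LSKO, and of untreated LSKO or manganese with WT, therefore cross this split, and there the treatment or genotype and the library handling cannot be told apart. Selenite, zinc or iron against WT stay within it, but there the genotype and the treatment cannot be told apart. Manganese against untreated LSKO stays within it for reads of low alignment quality only, since the manganese library keeps its own share of reads in no gene. In that library 72.2% of all reads lay in genes and 5.2% were set aside as ambiguous between genes. In untreated LSKO these shares were 39.4% and 1.3% in replicate 1, and 39.3% and 1.3% in replicate 2. Manganese and library handling therefore cannot be told apart there either. Alb and the other 11 hepatocyte markers were read in all 8 libraries, as were the Y-linked genes Ddx3y (117 to 151 normalized CPM), Uty, Kdm5d and Eif2s3y, and Xist had 3 to 35 reads. In bulk RNA, fewer cells of a type and less RNA per cell cannot be told apart.

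The 10 genes together took 0.923% of reads in genes with selenite (95% Wilson interval 0.919% to 0.927%), 0.725% with zinc, 0.505% with iron and 0.654% with manganese. In untreated LSKO cells they took 0.384% and 0.506%, and in WT cells 0.326% (0.324% to 0.328%) and 0.332%. These intervals cover counting error only. Scaled by library size and TMM factor (normalized CPM), the sum was 10652 with selenite, 7488 with zinc, 5017 with iron and 6413 with manganese. It was 3701 and 4992 in untreated LSKO, and 3137 and 3146 in WT. All 4 treated libraries lay above both untreated LSKO libraries and both WT libraries, iron only just, at 5017 against 4992 in LSKO replicate 2. The untreated LSKO libraries lay above both WT libraries, and differed more between themselves than the WT libraries did.

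The genes spanned a wide range of levels. Per kb of exon, and as a mean over the 8 libraries, Mup3 led with 2327 normalized CPM per kb, ahead of Mup7 with 2023 and Mup20 with 619. Mup11 (123), Mup17 (108), Mup13 (41.1), Mup1 (25.3), Mup10 (21.4), Mup21 (16.7) and Mup2 (1.83) followed. Over the 8 libraries, the ranges of neighbours in this order overlapped for every pair but Mup21 and Mup2. Mup3, Mup7 and Mup20 together made up 89.4% to 96.3% of the members' reads in each library. The leading gene was not the same throughout. Mup7 held more reads than Mup3 with zinc (1.23 reads of Mup7 per read of Mup3), selenite (1.20) and iron (1.09), and fewer with manganese (0.595), in untreated LSKO (0.409 and 0.547) and in WT (0.671 and 0.744). The ratio was thus higher in the selenite, zinc, iron and WT libraries than in the manganese and untreated LSKO libraries. The low alignment quality tallies separate the same libraries, and the part of that split in the ratio was not tested.

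**Figure D2:**
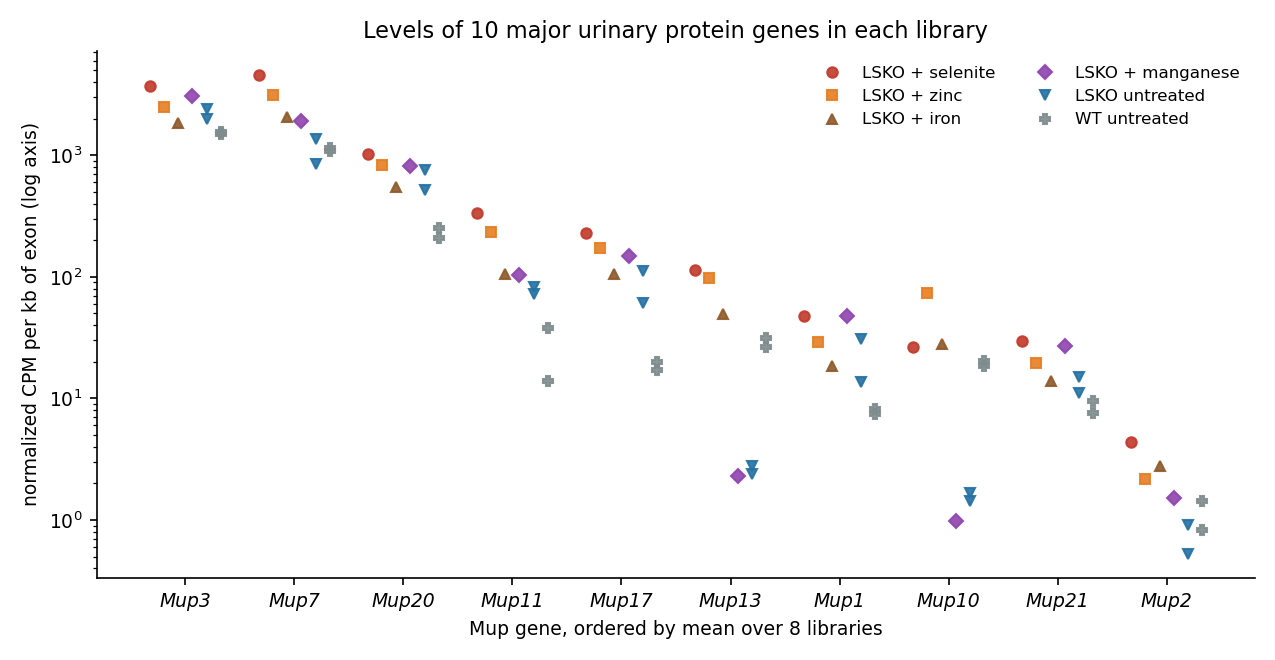
Level of each Mup gene (x axis, ordered by mean level) in each of the 8 libraries, in normalized CPM per kb of exon on a log axis. Each point is 1 library. The selenite library is the highest for 9 genes and the zinc library for Mup10, while Mup13 and Mup10 drop in the manganese and untreated LSKO libraries.

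Mup7 and Mup3 carried most of the signal. Mup7 had 4748 normalized CPM with selenite, 3261 with zinc, 2148 with iron and 1959 with manganese, against 875 and 1413 in untreated LSKO and 1119 and 1194 in WT. Every treated library was thus above all 4 untreated ones, and the untreated LSKO values enclosed those of WT. Against untreated LSKO, the log2 fold change of Mup7 was 2.05 with selenite, 1.51 with zinc, 0.91 with iron and 0.78 with manganese. Without LSKO replicate 1 it was 0.58 with iron and 0.47 with manganese, and without LSKO replicate 2 it was 1.18 with manganese. Mup3, the divergent gene at the head of the order, had 3970 normalized CPM with selenite, 2659 with zinc, 1964 with iron and 3292 with manganese, against 2140 and 2584 in untreated LSKO and 1668 and 1605 in WT. Its iron value lay below both untreated LSKO libraries, and its zinc value only just above the higher of them. On the log2 scale Mup3 differed from untreated LSKO by 0.75 with selenite, 0.17 with zinc, -0.27 with iron and 0.48 with manganese.

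Mup20 (darcin) had 942 normalized CPM with selenite, 775 with zinc, 508 with iron and 762 with manganese, against 481 and 697 in untreated LSKO and 235 and 195 in WT. The main step for Mup20 was between WT and all LSKO libraries, with no overlap, and iron fell inside the untreated LSKO range. Its log2 fold change against untreated LSKO was 0.68 with selenite, 0.40 with zinc, -0.21 with iron and 0.37 with manganese, and the selenite value was 0.39 without LSKO replicate 1. Mup21, the third divergent gene, had 20.3 normalized CPM with selenite, 13.2 with zinc, 9.37 with iron and 18.3 with manganese, against 7.44 and 10.3 in untreated LSKO and 6.42 and 5.15 in WT. Selenite and manganese were the highest for it and iron again fell within the untreated LSKO range. The log2 fold changes of Mup21 against untreated LSKO were 1.19 with selenite, 0.57 with zinc, 0.08 with iron and 1.04 with manganese.

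Among the near-identical genes, Mup11, Mup17 and Mup1 were alike in having their lowest values in WT, although the order of the other groups differed. Mup11 had 528 normalized CPM with selenite, 371 with zinc, 167 with iron and 164 with manganese, against 114 and 131 in untreated LSKO and 21.8 and 60.3 in WT. Mup17 had 212 normalized CPM with selenite, 161 with zinc, 98.6 with iron and 137 with manganese, against 56.9 and 103 in untreated LSKO and 15.9 and 18.4 in WT. Mup1 had 75.04 normalized CPM with selenite, 45.7 with zinc, 29.4 with iron and 74.98 with manganese, against 21.8 and 48.7 in untreated LSKO and 13.0 and 11.7 in WT. For all of Mup11, Mup17 and Mup1 the untreated LSKO libraries lay above both WT libraries, and for Mup17 and Mup1 the iron library lay between the untreated LSKO libraries, as did the zinc library for Mup1. Against untreated LSKO, the log2 fold changes with selenite were 2.11 for Mup11, 1.40 for Mup17 and 1.08 for Mup1. That of Mup1 rested on which untreated LSKO library it was set against, at 0.57 without LSKO replicate 1 and 1.75 without LSKO replicate 2. Mup2 was near the floor of the data, with 119, 72, 75 and 48 reads with selenite, zinc, iron and manganese, 16 and 33 in untreated LSKO, and 32 and 44 in WT. Its log2 fold change against untreated LSKO was 2.59 with selenite.

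Mup10 and Mup13 behaved unlike the other 8. Mup13 had 113 normalized CPM with selenite, 96.9 with zinc, 49.1 with iron and 2.29 with manganese, against 2.33 and 2.76 in untreated LSKO and 31.2 and 26.0 in WT. Mup10 had 36.7 normalized CPM with selenite, 103 with zinc, 39.2 with iron and 1.36 with manganese, against 1.98 and 2.32 in untreated LSKO and 25.6 and 28.1 in WT. Both genes were thus high in 5 libraries and low in 3, with no overlap, and manganese stood with untreated LSKO. The log2 fold changes against untreated LSKO were 5.46 with selenite, 5.24 with zinc and 4.26 with iron for Mup13, and 4.08, 5.57 and 4.18 for Mup10 in the same order. Set against WT instead, the log2 fold changes with selenite, zinc and iron were 1.98, 1.76 and 0.78 for Mup13, and 0.45, 1.95 and 0.55 for Mup10.

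The 5 libraries with high values of Mup10 and Mup13 were the same 5 that held reads set aside for low alignment quality. Mup22, the non-member that shares most windows with Mup10, followed the same split, with 114 to 244 normalized CPM in the 5 libraries and 6.83 to 36.9 in the other 3. Over all genes tested, 104 (0.672%) were at least 4-fold higher in each of the 5 libraries than in each of the 3. Of these, 87 (83.7%) were pseudogenes, against 6.62% of all genes tested, and 12 were protein-coding, Mup10 and Mup13 among them. A further 51 genes were at least 4-fold lower in each of the 5, and 50 of them were pseudogenes. The part of this split in the values of Mup10 and Mup13 was not tested.

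**Figure D3:**
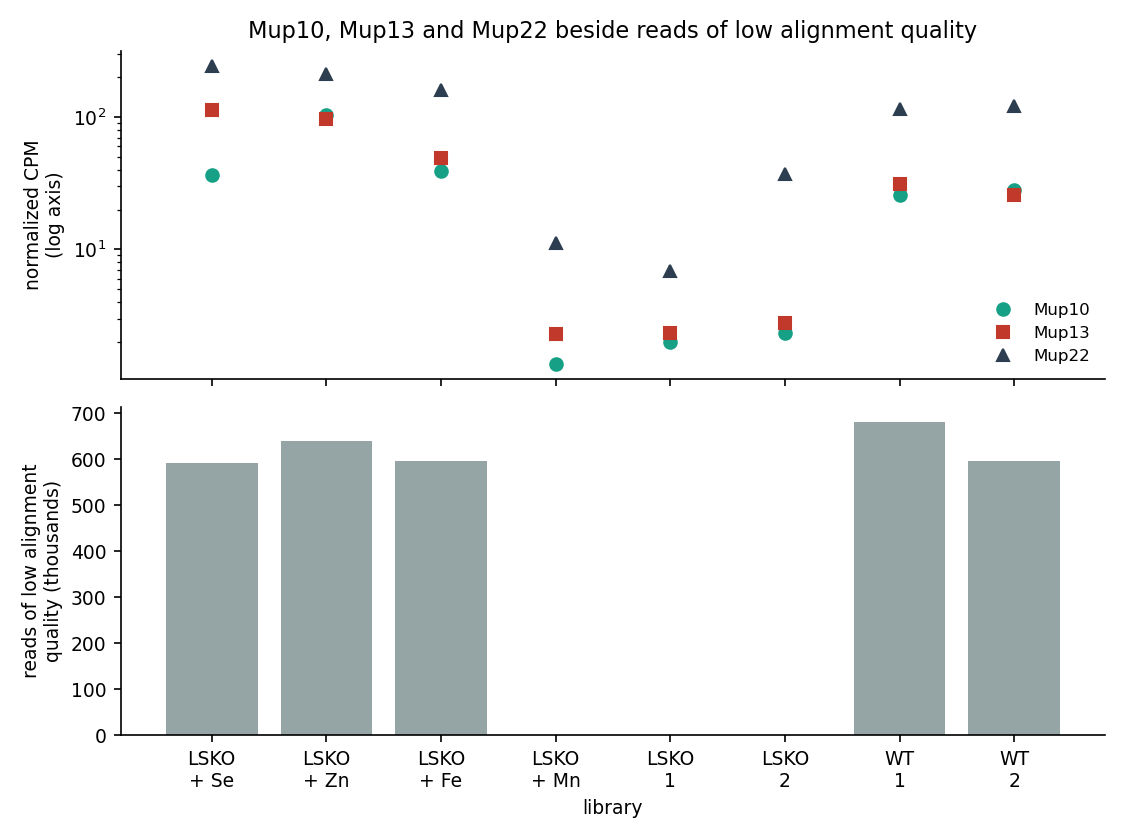
Upper panel: normalized CPM (log axis) of Mup10, Mup13 and Mup22 in each library. Lower panel: reads set aside for low alignment quality, as read numbers divided by 1000. The 3 genes are low in the manganese and untreated LSKO libraries, which hold 62 and 0 such reads, and high in the other 5, which hold 592678 or more.

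Manganese-treated LSKO against WT was the comparison whose contrast the choice of genes did not use, and it was tested, although one fit and its spread served all comparisons. Tests were edgeR quasi-likelihood F-tests with Benjamini-Hochberg adjustment over all 15468 genes, and a call required both an adjusted p below 0.05 and an absolute log2 fold change above 0.5. Of the 10 genes, 7 were called higher and 2 lower with manganese, where 28.5% of all genes tested were called, 9.45% higher and 19.1% lower. Mup17 rose by a log2 fold change of 3.0 ± 0.25 (SE, edgeR adjusted p = 3.5e-06), Mup1 by 2.60 ± 0.32 (7.3e-05) and Mup11 by 2.01 ± 0.37 (0.0014). Mup20 rose by 1.82 ± 0.18 (edgeR adjusted p = 1.1e-05), Mup21 by 1.65 ± 0.21 (1.0e-04), Mup3 by 1.01 ± 0.11 (3.7e-05) and Mup7 by 0.76 ± 0.20 (0.013). Mup10 and Mup13 were lower, with log2 fold changes of -4.30 ± 0.20 (edgeR adjusted p = 2.9e-08) and -3.64 ± 0.20 (1.0e-07). Mup2 was not called at 0.45 ± 0.42 (edgeR adjusted p = 0.45). The manganese library lay above both WT libraries for 8 genes and below both for Mup10 and Mup13, with no like share computed over all genes tested. The single manganese library takes its spread from the WT and LSKO pairs, and genotype, manganese and library handling cannot be told apart here. With DESeq2, Mup7 (adjusted p = 0.19) and Mup11 (adjusted p = 0.063) lost their calls, and without either WT library Mup7 did too (edgeR adjusted p 0.085 and 0.11).

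The remaining comparisons share libraries with the choice of genes. Selenite, zinc and iron against untreated LSKO are the comparisons that chose the family, so that their counts describe the choice. There 10 of the 10 genes passed both thresholds upwards with selenite, where 17.6% of all genes tested were called, 7.89% higher and 9.67% lower. With zinc 5 did, where 4.45% of all genes were called, 2.90% higher and 1.55% lower. With iron 4 did, Mup2, Mup7, Mup10 and Mup13, where 8.70% were called, 3.80% higher and 4.89% lower. The median log2 fold change of the 10 genes was 1.73 with selenite, 1.26 with zinc and 0.37 with iron, beside medians of -0.01, -0.01 and 0.00 over all genes tested. With manganese against untreated LSKO, Mup1, Mup7, Mup17 and Mup21 were called higher by edgeR and none lower (none by DESeq2 either, and 1 at an unadjusted p under 0.05), where 17.2% of all genes were called, 2.09% higher and 15.1% lower. The median of the members in that comparison was 0.63, beside -0.02 over all genes.

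Counts against untreated LSKO depended on single libraries. Without LSKO replicate 2 the members called higher numbered 9 with zinc, where 996 of all genes were called against 688 with every library kept, and 8 with manganese, where 2790 were called against 2654. Without LSKO replicate 1 they numbered 5 with zinc (794 of all genes) and 2 with manganese (2589). Without WT replicate 1 or 2, 1 was called with manganese (2529 and 2541 of all genes). The log2 fold change of the summed genes against untreated LSKO was 1.29 with selenite, 0.78 with zinc, 0.56 with manganese and 0.21 with iron, and with iron it was -0.019 once LSKO replicate 1 was left out.

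Untreated LSKO cells were called higher than WT for Mup1, Mup3, Mup11, Mup17 and Mup20, and lower for Mup10 and Mup13, where 10.4% of all genes were called, 6.74% higher and 3.70% lower. The log2 fold changes of the 5 higher genes lay between 0.53 (Mup3) and 2.23 (Mup17), while those of Mup10 and Mup13 were -3.63 and -3.48. Without WT replicate 1 or 2, and also in DESeq2, 3 were higher in place of 5. Mup1 and Mup3 were the ones lost without either WT library (all genes called then numbered 715 and 800, against 1615), and Mup1 and Mup11 in DESeq2 (1039). The log2 fold change of Mup11 was 1.59, and 1.04 and 2.5 without WT replicate 1 and 2. Without LSKO replicate 2, that of Mup1 was 0.83 against 1.51 with every library kept, and that of Mup3 was 0.40, short of the fold required. Mup7 stood at -0.02, and at 0.32 without LSKO replicate 1. Against WT and within the same class of read tallies, 9 of the 10 genes were called higher with selenite, where 26.7% of all genes were called, 13.8% higher and 12.9% lower. With zinc 9 were called higher, where 9.70% of all genes were called, 6.39% higher and 3.30% lower. With iron 8 were called higher, where 10.6% of all genes were called, 5.88% higher and 4.76% lower. Each of these 3 libraries lay above both WT libraries for all 10 genes, but the share of all genes tested that did so was not computed. Median log2 fold changes against WT were 2.01 with selenite, 1.80 with zinc and 1.07 with iron. Without WT replicate 1 or 2, the count was 5 with zinc (331 and 227 of all genes, against 1500) and 4 or 3 with iron (501 and 666, against 1646), and DESeq2 called 3 with iron (933).

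**Figure D4:**
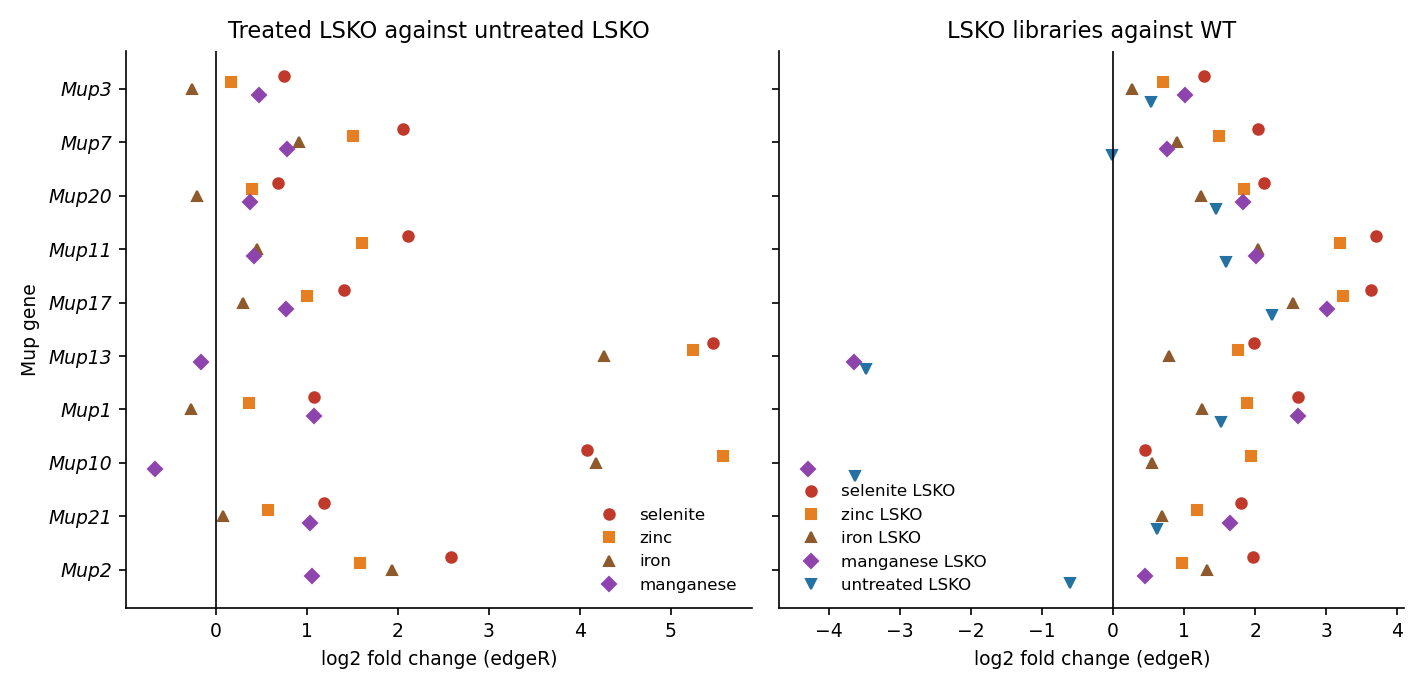
Log2 fold change (x axis, edgeR) of each Mup gene (rows, ordered by level). Left: LSKO cells given selenite, zinc, iron or manganese, each against untreated LSKO. Right: the same libraries and untreated LSKO, against WT. Mup10 and Mup13 lie near or above 4 on the left with selenite, zinc and iron, and below -3 on the right with manganese and in untreated LSKO.

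The 12 other protein-coding Mup genes were examined in the same way, and 10 passed the filter. Mup4 and Mup5, with at most 2 and 14 reads in a library, did not. Mup14 was the most abundant of them per kb, with a mean of 480 normalized CPM per kb, ahead of Mup22 (132), Mup15 (99.2) and Mup12 (57.2). They belong to the family chosen for its rises, so their differences with selenite, zinc and iron against untreated LSKO are a description too. Their median log2 fold changes there were 2.59, 2.12 and 1.11. Mup6 had no more than 30 reads in any library. Mup14 had 1363 normalized CPM with selenite, 939 with zinc, 663 with iron and 701 with manganese, against 344 and 647 in untreated LSKO and 292 and 352 in WT. Mup15 had 235 normalized CPM with selenite, 140 with zinc, 82.6 with iron and 138 with manganese, against 24.1 and 92.6 in untreated LSKO and 9.72 and 12.2 in WT. For Mup14 all treated libraries lay above all untreated ones, and for Mup15 iron fell inside the untreated LSKO range. Of windows of 150 bases, Mup22 had 0, Mup19 had 0.765% and Mup15 had 9.28% that no other gene holds. These were the lowest shares of the 22 genes, and the values of all of them are uncertain between copies. Reads were still counted for Mup22, from 155 in LSKO replicate 1 to 5164 with zinc, so the window shares do not bound what was counted. With manganese against WT, where 9.45% of all genes were called higher, 4 of the 10 were, among them Mup15 at 3.67 ± 0.52 (SE, edgeR adjusted p = 2.2e-04) and Mup19 at 2.11 ± 0.27 (9.6e-05), and Mup22 was called lower at -3.39 ± 0.67 (0.0022).

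Hepatocyte markers moved with the Mup genes in several comparisons. Of 12 markers, 10 were called higher with manganese against WT, 10 in untreated LSKO against WT, and 6 with selenite against untreated LSKO. Over all genes tested 9.45%, 6.74% and 7.89% were called higher in the same order. With zinc against untreated LSKO 0 were called in either direction by edgeR or DESeq2 (2 at an unadjusted edgeR p under 0.05), and with iron 1 was called higher (Tat, an amino acid catabolic enzyme) and 1 lower (Apoc3, an apolipoprotein). The summed level of the 12 markers was 51592 normalized CPM with selenite, 38020 with zinc, 32142 with iron and 44431 with manganese, against 30725 and 38588 in untreated LSKO and 22636 and 21605 in WT. Endothelial markers went the other way, with 110, 99.8, 79.8 and 143 normalized CPM with selenite, zinc, iron and manganese, 153 and 123 in untreated LSKO, and 185 and 189 in WT. Of 7 such markers 3 were called lower with selenite, 1 with zinc and 5 with iron against untreated LSKO. Kupffer and macrophage markers summed to 362, 313, 324 and 518 normalized CPM with selenite, zinc, iron and manganese, 273 and 314 in untreated LSKO, and 230 and 209 in WT. Of 10 tested, 3 were called higher with selenite, 2 with zinc and 4 with manganese against untreated LSKO, while 5 were called lower with iron and 1 with manganese. Stellate and fibroblast markers summed to 42.4, 34.9, 18.0 and 42.3 normalized CPM with selenite, zinc, iron and manganese, 42.6 and 39.7 in untreated LSKO, and 44.2 and 44.7 in WT, and of 8 tested 2 were lower with selenite, 1 with zinc and 3 with iron. Cholangiocyte markers summed to 71.4, 42.9, 25.9 and 42.9 normalized CPM with selenite, zinc, iron and manganese, 65.9 and 49.3 in untreated LSKO, and 83.5 and 88.1 in WT. Of the 3 cholangiocyte markers tested, 1 was higher with selenite, and 1 with zinc, 2 with iron and 1 with manganese were lower. The iron library thus had the lowest sums of endothelial, stellate and cholangiocyte markers of the 8 libraries. Single genes made up most of some sums. With iron, Cd68 held 263 of the 324 normalized CPM of Kupffer and macrophage markers. Dcn held 11.1 of the 18.0 of stellate markers, and Alb 27350 of the 32142 of hepatocyte markers. With manganese against WT, 6 Kupffer and macrophage markers were called higher and 1 lower, 1 stellate marker was higher and 2 lower, and 3 endothelial and 2 cholangiocyte markers were lower. The part of these markers in the Mup values was not tested.

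Set against albumin, the main secreted product of hepatocytes, the members separated. The 10 genes together had 246 reads per 1000 reads of Alb with selenite, 237 with zinc, 183 with iron and 173 with manganese, against 147 and 159 in untreated LSKO and 169 and 178 in WT. On this scale manganese fell inside the WT range, and untreated LSKO lay below WT. Mup3 was close to level, between 71.8 and 91.7 reads per 1000 Alb reads over the 8 libraries. Mup7 had 110 reads per 1000 Alb reads with selenite, 103 with zinc, 78.5 with iron and 52.7 with manganese, against 34.8 and 44.8 in untreated LSKO and 60.1 and 67.4 in WT. Mup20 had 21.8 with selenite, 24.5 with zinc, 18.6 with iron and 20.5 with manganese, against 19.1 and 22.1 in untreated LSKO and 12.6 and 11.04 in WT. All treated LSKO values of Mup7 thus lay above both untreated LSKO values also relative to Alb, whereas the selenite and manganese values of Mup20 fell within the untreated LSKO range. On this scale Mup7 was also higher in the selenite, zinc, iron and WT libraries than in the manganese and untreated LSKO libraries. These are the same sets of libraries that the low alignment quality tallies separate, and the part of that split in Mup7 was not tested.

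**Figure D5:**
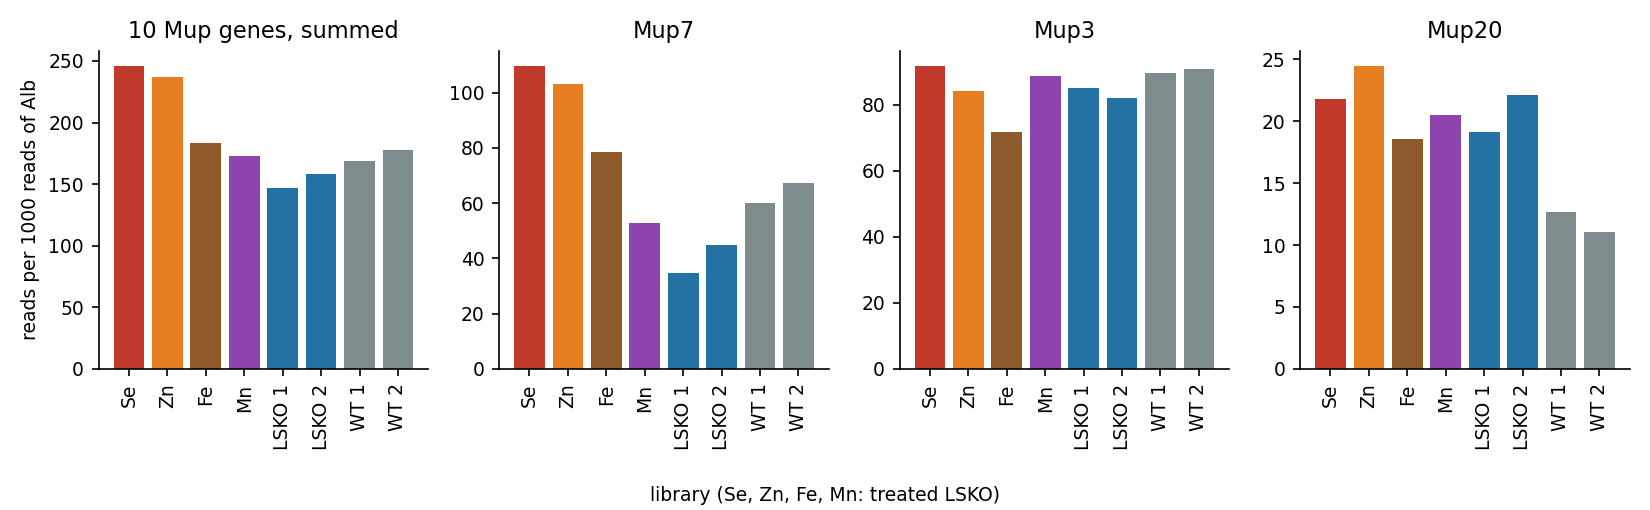
Reads of the 10 Mup genes together, and of Mup7, Mup3 and Mup20, per 1000 reads of Alb (y axes from 0) in each library (x axes). Each bar is 1 library. The sum runs from 147 to 246, Mup3 stays between 71.8 and 91.7, and Mup20 is lowest in both WT libraries.

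Of 13 genes of the growth hormone pathway and known regulators of Mup genes, 1 was called higher and 1 lower with selenite against untreated LSKO. Socs2, a feedback inhibitor of growth hormone signalling, was higher at 0.52 ± 0.11 (SE, edgeR adjusted p = 0.0083), while Cish, another such inhibitor, was lower at -0.58 ± 0.16 (edgeR adjusted p = 0.023). DESeq2 called 0 of the 13 with selenite. With zinc, Igf1 (-0.79 ± 0.10, edgeR adjusted p = 8.9e-04) and Cish (-0.79 ± 0.16, 0.016) were lower and none was higher. With iron Socs2 was lower at -0.65 ± 0.12 (edgeR adjusted p = 0.0078). With manganese Igfals, the acid-labile subunit that carries IGF1, was higher at 0.71 ± 0.17 (edgeR adjusted p = 0.012). DESeq2 called 1 of the 13 with zinc, 1 with iron and 0 with manganese. The medians of the list against untreated LSKO lay between -0.09 with zinc and 0.05 with iron, beside -0.02 to 0.00 over all genes.

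Other genes with male-biased expression in liver, 10 of 11 of which were tested, had 3 called higher with selenite against untreated LSKO, 0 with zinc, 1 with iron and 1 with manganese. Over all genes tested 7.89%, 2.90%, 3.80% and 2.09% were called higher in the same order. With manganese Selenbp2, a selenium-binding protein, was lower at -1.44 ± 0.26 (SE, edgeR adjusted p = 0.0019). Hsd3b5, a steroid dehydrogenase, was called with selenite at 1.37 ± 0.31 (SE, edgeR adjusted p = 0.0096) and C6, a complement component, at 0.88 ± 0.28 (0.042). With zinc the smallest p of the list belonged to Gstp1, at 0.50 (edgeR adjusted p = 0.023), just short of the fold required, 2 genes had an unadjusted p under 0.05 and DESeq2 called 1. With manganese against WT 7 of the 10 were called higher (9.45% of all genes), and in untreated LSKO against WT 7 were (6.74% of all genes). The latter included Cyp4a12a, a fatty acid hydroxylase, at 2.04 ± 0.26 (SE, edgeR adjusted p = 5.1e-04). Of 15 female-biased genes only 4 had enough reads for the test, and with selenite, zinc and iron against untreated LSKO 0 were called by edgeR or DESeq2 (1, 2 and 1 at an unadjusted edgeR p under 0.05). With manganese Cyp2a4, a steroid hydroxylase, was higher at 1.01 ± 0.22 (SE, edgeR adjusted p = 0.0077). DESeq2 did not call it. Against WT, 3 of the 4 were higher with manganese, with a median of 1.29, and in untreated LSKO 1 was, Cyp17a1, another steroid hydroxylase, with 67 and 142 reads in untreated LSKO and 0 and 1 in WT.

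Lipocalins outside the Mup family were called higher with selenite against untreated LSKO in 6 of 9 genes tested and lower in 1. Orm2, an orosomucoid of the acute phase, was higher at 1.27 ± 0.17 (SE, edgeR adjusted p = 7.3e-04), and Lcn2, which binds bacterial siderophores, at 1.22 ± 0.13 (2.0e-04). Apod was the lower one, at -3.62 ± 0.76 (SE, edgeR adjusted p = 0.0069). It was near the floor, with 2 reads with selenite against 27 and 37 in untreated LSKO, and DESeq2 called 0 lipocalins lower there. With zinc 3 lipocalins were higher and 1 lower, with iron 0 and 1, and with manganese 4 and 0. Over all genes tested 7.89% were called higher with selenite, 2.90% with zinc, 3.80% with iron and 2.09% with manganese. The list's median was 0.67 with selenite, 0.07 with zinc, 0.01 with iron and 0.45 with manganese.

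Liver genes of other multi-copy families, which could share the uncertainty of read placement, were called higher with selenite against untreated LSKO in 10 of 14, with zinc in 2, with iron in 3 and with manganese in 5. Over all genes tested 7.89%, 2.90%, 3.80% and 2.09% were called higher in the same order. DESeq2 called 7 of the 14 with selenite. The medians of the list were 0.87, 0.33, 0.08 and 0.46. Gsta1, a glutathione transferase, was the largest with selenite at 2.30 ± 0.09 (SE, edgeR adjusted p = 9.9e-08), and with zinc at 2.35 ± 0.09 (9.2e-08). With manganese 1 was lower, Serpina1c, a protease inhibitor, at -1.83 ± 0.16 (SE, edgeR adjusted p = 7.2e-06).

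The genes whose profile was most like the summed Mup genes were sought among the 9116 genes outside the family that averaged 10 or more normalized CPM. Over the 8 libraries the highest Pearson r on log2 (normalized CPM + 1) belonged to Rnf7 (0.990), Smim7 (0.989), Pter (0.983), Selenok (0.979) and Cyb5a (0.976). Selenok encodes a selenoprotein of the endoplasmic reticulum, and Cyb5a the electron carrier cytochrome b5. Cyb5a had 606 normalized CPM with selenite, 490 with zinc, 362 with iron and 421 with manganese, against 339 and 407 in untreated LSKO and 263 and 256 in WT. These correlations share libraries, depth and scaling with the Mup values and were chosen for their size.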

How the data were processed

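RNA-seq counts of 8 libraries in 6 groups were used. The deposited files hold unnormalized read counts for each gene, made by the authors with HISAT2 alignment to GRCm38 and HTSeq counting. The strand setting, the quality threshold and the annotation release were not given in the sources used here, and the study's texts differ on whether 1 or both ends were read. GENCODE M21 held all 55450 gene identifiers.

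Genes with at least 80 reads in all (15468) were fitted over all libraries with edgeR 4.0.16 in R 4.3.3 (TMM factors, quasi-likelihood F-test, 2 residual and 8.53 prior degrees of freedom). Tallies of unassigned reads stayed out of library sizes. Calls required a Benjamini-Hochberg p below 0.05 and an absolute log2 fold change above 0.5. Groups with 1 library take their spread from the WT and LSKO pairs, whose replicates differed by more than counting error (chi-square per degree of freedom 5.99 and 13.3). Where separate mice are not stated, p-values measure only the spread between libraries.

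The members and gene lists were chosen with earlier results of these data known, and 1 gene of the growth hormone list and 1 of the female-biased list are not reported here. Named genes are the Mup genes, the sex chromosome genes, up to 4 called genes of each other list by size of change (without calls, those of lowest p), and the 5 genes most like the summed members. Alternatives were DESeq2 1.42.0, median-ratio factors, no filter, each untreated library left out, and a replicate block. The fit was tested on simulated data. Sequence identity was computed with Biopython.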

Additional observations from a re-analysis of the deposited data

Results flagged for a closer look

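Signal outside the gene counts was above that of the untreated LSKO libraries in 3 treated libraries: 592678 reads were set aside for low alignment quality with selenite, 639398 with zinc and 595338 with iron, against 0 in both untreated LSKO libraries. The WT libraries held 680199 and 597226. The pseudogene Mup-ps19 shares 31.1% of the 150-base windows of Mup20 and belongs to no comparison above. It had 53.1 normalized CPM with selenite, 33.8 with zinc, 25.5 with iron and 5.93 with manganese, against 3.52 and 6.40 in untreated LSKO and 12.4 and 11.3 in WT. Like Mup10, Mup13 and Mup22, it was thus higher in the selenite, zinc, iron and WT libraries than in the manganese and untreated LSKO libraries.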

How the results depend on the processing

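DESeq2 called fewer genes than edgeR against untreated LSKO, among the 10 Mup genes and among all: 6 with selenite (10 in edgeR; 1649 of all genes, 2717 in edgeR), 3 with zinc (5; 415 and 688), 2 with iron (4; 750 and 1345) and 1 with manganese (4; 2122 and 2654). Against WT it called 3 with iron (8; 933 and 1646). The summed genes kept their size but not their call in DESeq2, at 0.79 with zinc and 0.58 with manganese against untreated LSKO and 0.66 with iron against WT. Leaving out 1 untreated library at a time, the calls against untreated LSKO ranged from 4 to 9 with zinc and from 1 to 8 with manganese, and those against WT from 5 to 9 with zinc and from 3 to 9 with iron. The summed log2 fold change then ranged from 0.58 to 1.03 with zinc, from 0.36 to 0.81 with manganese and from -0.019 to 0.43 with iron against untreated LSKO, from 0.25 to 0.70 in untreated LSKO against WT, and stayed at 0.68 with iron against WT, with its call lost without either WT library. The cause was not tested. Median-ratio factors, no filter, summing all Mup genes, and leaving out the manganese library, which was chosen after seeing the data, kept the direction of each summed value and each count within 1.5 times. In the other gene lists, DESeq2 with selenite against untreated LSKO called 2 hepatocyte markers (6 in edgeR), 4 lipocalins (7) and 1 male-biased gene (3). For single members, 638 values kept direction and side of the threshold, 63 lost the call, 22 gained it and 7 changed sign, each a value not called over all libraries. These came from leaving out 1 untreated library, over which the log2 fold change ranged from -0.39 to 0.32 for Mup7 in untreated LSKO against WT and from -0.094 to 1.08 for Mup1 with zinc against untreated LSKO. With iron against untreated LSKO it ranged from -0.75 to 0.42 for Mup1, from -0.48 to 0.070 for Mup20, from -0.16 to 0.32 for Mup21 and from -0.091 to 0.78 for Mup17.

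The replicate numbers are shared by WT and LSKO, and the deviations of same-numbered libraries correlated at -0.148 over 9134 genes. With a single pair of libraries in each genotype, this value cannot tell whether the numbers pair the samples. With a replicate block over the 4 untreated libraries 8 members were called in LSKO against WT (1608 of all genes), against 7 without the block (1492), and the summed value was 0.45 with the block and 0.46 without it. A crossed pairing, added after seeing the data, called 8 (1616 of all genes). Mup2, at 16 to 119 reads per library, is limited by depth.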
